A study of Mus musculus with 2 samples.

Results

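Lipid-associated macrophages are tissue and tumour macrophages that take up and break down lipid from dying cells, and they share a programme of lipid sensing, lysosomal and secreted genes. The 7 genes described here are Spp1, Trem2, Gpnmb, Apoe, Fabp5 and Lgals3, which are widely used markers of that programme, and Mrc1, a broader macrophage marker. They were picked by symbol from the 28523 genes that the authors list for all cells. All 7 were found there. The deposited tables used here give, per gene, the authors' flags and a list of neutrophil markers. Counts of these genes in single cells were not analysed here, so no level of a member is given by cell type, by macrophage cluster or by library, and no difference of a member between the libraries.

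The cells came from metastases in the liver that grew from 4T1, a triple-negative mammary carcinoma line of the mouse, dissected on day 14 after injection into the spleen of female BALB/c mice aged 6 to 8 weeks, whose spleens were removed shortly after. The shZdhhc17 library is from 4T1 cells with a lentiviral short hairpin against Zdhhc17, a palmitoyltransferase gene, and the shSCR library from 4T1 cells with a scrambled hairpin. In both, only the injected cells carried the vector, which was selected with puromycin, and the macrophages and neutrophils are those of the mouse. Each library pooled equal numbers of cells from 3 mice, so each group is 1 library and no test between groups was possible.

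The shZdhhc17 library held 21511 cells with a median of 6732 UMIs (counted molecules) per cell, and the shSCR library 22860 cells with a median of 7105. The libraries shared 609 number labels of cells. Of the pairs with a shared label, 15.8% had the same cell type, against 18.7% for pairs drawn at random from both libraries.

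The members have different jobs in the cell. Trem2 is a surface receptor that senses lipids and lipoproteins, and Mrc1 encodes the mannose receptor CD206, an endocytic receptor often used to mark alternatively activated macrophages. Apoe encodes apolipoprotein E, a protein of lipoprotein particles that takes up cholesterol leaving macrophages, and Fabp5 a chaperone of fatty acids inside the cell. Gpnmb is a glycoprotein of lysosomal and surface membranes. Spp1 (osteopontin) and Lgals3 (galectin-3) encode secreted proteins, the first a matrix phosphoprotein that binds integrins and the second a lectin that binds galactosides and is also found in the cytoplasm.

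All 7 are protein-coding genes on separate chromosomes of GRCm38, the build the file headers name, with positions here from GENCODE release M21. The receptor genes are Trem2 (ENSMUSG00000023992.14, chromosome 17, 48346401 to 48354147, plus strand) and Mrc1 (ENSMUSG00000026712.3, chromosome 2, 14229392 to 14332057, plus strand). The lipid carriers are Apoe (ENSMUSG00000002985.16, chromosome 7, 19696109 to 19699188, minus strand) and Fabp5 (ENSMUSG00000027533.10, chromosome 3, 10012548 to 10016607, plus strand). Gpnmb is at chromosome 6 (ENSMUSG00000029816.10, 49036546 to 49070929, plus strand). The secreted proteins are encoded by Spp1 (ENSMUSG00000029304.14, chromosome 5, 104435118 to 104441050, plus strand) and Lgals3 (ENSMUSG00000050335.17, chromosome 14, 47367751 to 47386160, plus strand).

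Variation among all cells was read from the authors' flag for the 1000 most variable genes, which they used to lay out and cluster the whole data set. Of the 7 members, 5 carried it: Spp1, Gpnmb, Apoe, Fabp5 and Mrc1. The flag covers 3.51% of all listed genes. Trem2 and Lgals3 did not carry it. So the lipid carriers Apoe and Fabp5 were both flagged, while of the receptors Mrc1 was and Trem2 was not, and of the secreted proteins Spp1 was and Lgals3 was not. The flag was set on both libraries together. It says that a gene varied over the cells, not in which cells it was high, and the members were picked as known markers of a cell state rather than at random. None of the 7 carried the authors' mitochondrial, ribosomal or cell cycle flag.

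In the separate table for neutrophils, which lists 75.5% of all the genes (21544), 4 of the 7 members were listed: Spp1, Apoe, Fabp5 and Lgals3. The receptor genes Trem2 and Mrc1 and the membrane glycoprotein gene Gpnmb were not among them. The rule for listing a gene there is not given in the sources used here, so the absence of these 3 is not a measured level. For comparison, 80.5% of the 1000 most variable genes of all cells were listed for neutrophils, against 3 of the 5 variable members.

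Within neutrophils the flag marks 4.64% of the listed genes. Of the 4 listed members it marked Fabp5 alone. Fabp5 was thus flagged as variable both over all cells and within neutrophils, as were 383 of the 1000 variable genes of all cells. Spp1 and Apoe were flagged over all cells and not within neutrophils. Lgals3 was flagged in neither set.

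**Figure D1:**
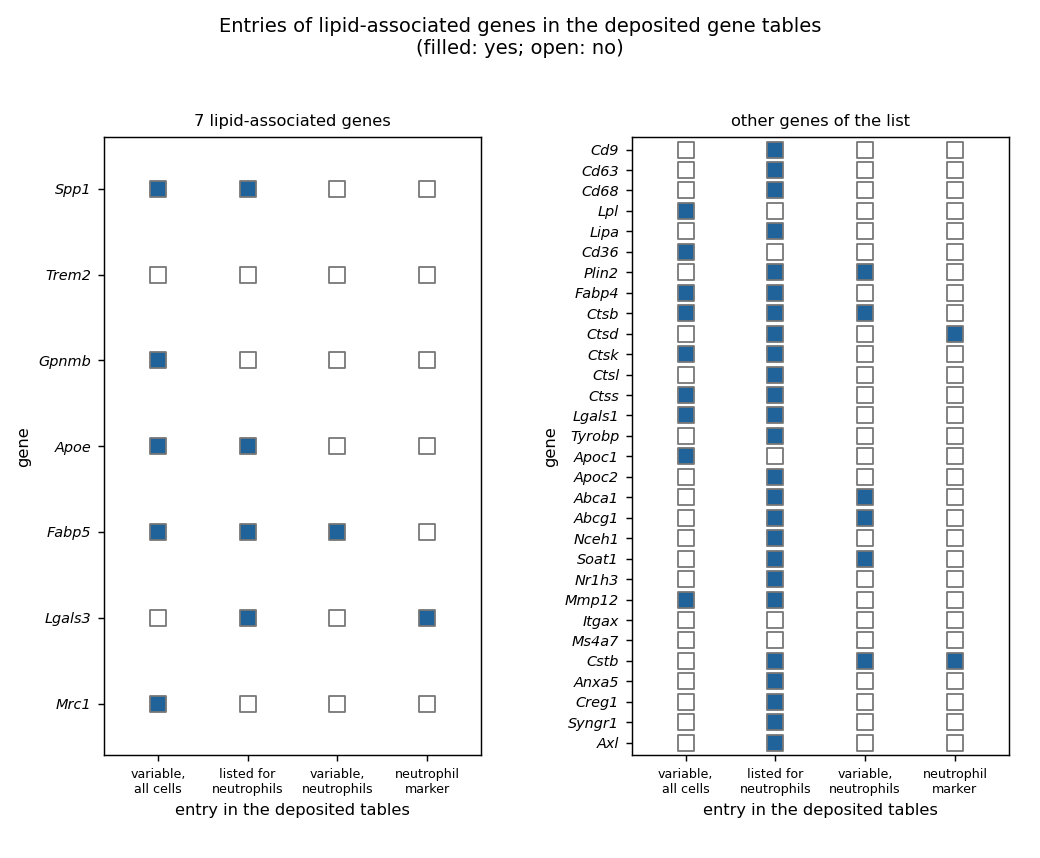
Entries of the 7 genes (left) and of 30 other genes of lipid-associated macrophages (right) in the deposited gene tables. Each row is a gene, and the columns show whether it was flagged as variable over all cells, listed for neutrophils, flagged as variable in neutrophils, or listed as a neutrophil cluster marker (filled squares for yes, open for no, open also where a gene was not listed for neutrophils). Spp1, Gpnmb, Apoe, Fabp5 and Mrc1 are filled in the first column, Fabp5 alone of the 7 in the third and Lgals3 alone of the 7 in the last.

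A wider list held 30 other genes used to describe lipid-associated macrophages, with roles in lipid handling and lysosomes and also surface, matrix and signalling genes. Over all cells 9 of the 30 were flagged: Lpl and Cd36, which serve fatty acid release and uptake, the fatty acid chaperone gene Fabp4, the lysosomal cathepsin genes Ctsb, Ctsk and Ctss, the galectin gene Lgals1, the apolipoprotein gene Apoc1 and the elastase gene Mmp12. For neutrophils 25 of the 30 (83.3%) were listed, against 75.5% of all genes. Lpl, Cd36, Apoc1, Itgax and Ms4a7 were not. Within neutrophils 6 were flagged, namely Ctsb, Plin2, which coats lipid droplets, the cholesterol efflux transporter genes Abca1 and Abcg1, Soat1, which esterifies cholesterol, and Cstb, a cysteine protease inhibitor gene. Ctsb was the 1 gene of the list flagged in both sets, so 5 of the 6 were flagged in neutrophils and not over all cells. Of the 1000 genes flagged within neutrophils, 383 were flagged over all cells as well. For comparison, 3.51% of all genes were flagged over all cells and 4.64% of those listed for neutrophils.

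Lgals3 was the one member for which expression values were available, as a marker of a neutrophil cluster that the authors named ECM Remodeling. In the authors' deposited table Lgals3 was above 0 in 93.3% of ECM Remodeling cells. Its log2 fold change in that table, on counts scaled for depth and against all other neutrophils, was 1.16. These values pool both libraries and compare neutrophil clusters, not macrophages and not the shZdhhc17 and shSCR libraries. They come without a p-value or an error, and the share of other neutrophils with Lgals3 was not used here.

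Among the 20 markers of the ECM Remodeling cluster, Lgals3 was near the end of the list. It ranked 18 by the authors' marker score (0.830), which multiplies the log2 fold change by a specificity score. By the log2 fold change itself it ranked 19, and in the authors' deposited table that value ran between 1.07 and 3.45 over the 20 genes with a median of 1.49. By specificity, which is high for a gene found in most cells of the cluster and in few other neutrophils, it ranked 11, with 0.713 in the authors' deposited table against a median of 0.721 over the 20 genes. Its share of cells with the gene ranked 12, and the median share over the 20 markers was 95.6%. Lgals3 was thus close to the middle of the list in specificity and in share of cells, and near the end in fold change. Lgals3 was among the 13 of these 20 markers that were not flagged as variable in neutrophils. Of the 20 markers 35% were flagged, and of the 180 markers of all clusters 41.1%.

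**Figure D2:**
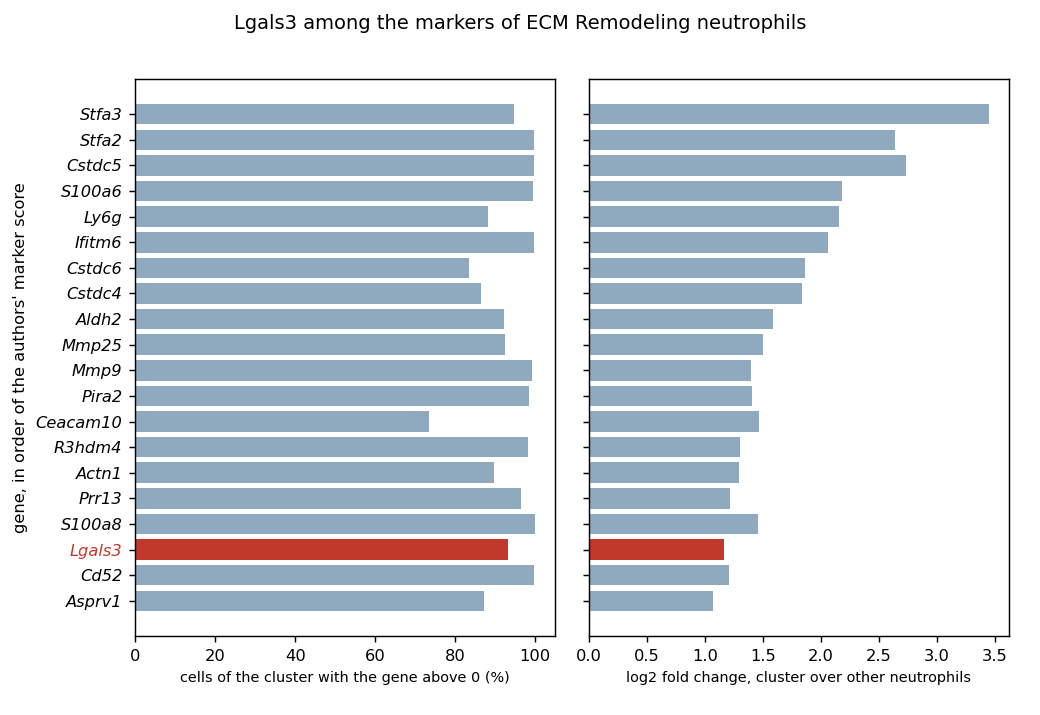
The 20 markers of ECM Remodeling neutrophils from the authors' deposited table, in order of marker score from the top, with the share of cells of the cluster that have the gene above 0 (left, percent) and the log2 fold change against all other neutrophils (right). Lgals3, in red, has 93.3% of cells and a log2 fold change of 1.16, the smallest but 1 of the 20.

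The share of cells with Lgals3 is not corrected for depth, and at the median the cluster was deeper than the other neutrophils. The median was 4667.5 UMIs over its 846 cells and 1797 over the 10076 other neutrophils. The difference was present in each library, with medians of 3963 UMIs in the cluster and 1294 outside it in shZdhhc17 (348 cells in the cluster) and 5370.5 and 2208.5 in shSCR (498 cells in the cluster). Of the other 8 clusters, 4 had a higher median than ECM Remodeling, and Lgals3 was not among their 20 listed markers. No gene was listed for more than 1 cluster, so the table gives no value of Lgals3 there. The part of depth in the share of cells with Lgals3 was not tested.

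Of the 25 genes of the wider list that were listed for neutrophils, 2 were neutrophil markers. Of the 4 members listed there 1 was, Lgals3, and of all genes listed there 0.835% were. Cstb was listed for Hypoxia/Angiogenesis in the authors' deposited table, with a log2 fold change of 2.31, and was above 0 in 50.6% of its cells. Cells of that cluster were shallower, with a median of 1159 UMIs in Hypoxia/Angiogenesis and 2864 in other neutrophils. Ctsd, the gene of the lysosomal protease cathepsin D, was listed for Migration 1 in the authors' deposited table, with a log2 fold change of 0.55, and was above 0 in 64.7% of its cells. Migration 1 cells had a median of 2176 UMIs and other neutrophils 1948. Of the 3 genes Lgals3 had the highest share of cells, in the cluster with the highest median of UMIs, and Cstb the largest fold change.

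Macrophages other than Kupffer cells (which line the liver sinusoids) numbered 2934 in shZdhhc17 and 3127 in shSCR. They carried 22052881 and 28324805 UMIs in all. The authors' label was not checked against marker levels here. Their makeup is given because the members were to be described by cluster within these cells, and it holds no value of any of the 7. The authors' initial clustering split them over 25 labels, of which 16 held at least 50 cells over both libraries. In 15 of these 16 at least 87.6% of the cells of the label were annotated as non-Kupffer macrophages, while in cluster 2 10.7% were.

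Of the 16 clusters, 3 made up a higher share of these macrophages in shZdhhc17, 3 a lower share and 10 had overlapping exact 95% intervals, which cover counting error only. Cluster 22 made up 10.1% in shZdhhc17 (9.02 to 11.2) and 4.61% in shSCR (3.90 to 5.40), a ratio of 2.19. Clusters 38 (8.66% in shZdhhc17 and 5.40% in shSCR) and 103 (4.77% in shZdhhc17 and 2.72% in shSCR) were the other two with higher shares. Cluster 8 made up 6.44% in shZdhhc17 (5.58 to 7.39) and 11.2% in shSCR (10.1 to 12.3), a ratio of 0.577. Clusters 51 (5.32% in shZdhhc17 and 7.45% in shSCR) and 90 (3.37% in shZdhhc17 and 5.21% in shSCR) were lower too. Median UMIs per cell were lower in shZdhhc17 in 15 of the 16 clusters, cluster 103 being the exception (8970 in shZdhhc17 and 7623 in shSCR). The clusters with lower shares were shallower than those with higher shares in both libraries. In shSCR, clusters 8, 51 and 90 had medians of 7110, 6581 and 5827 UMIs. Clusters 22, 38 and 103 had 8365, 9467 and 7623 there. Cluster 13 was shallow too (6109 in shSCR), with a ratio of 1.00. How far the shares follow the depth of a cluster was not tested. The interval of the ratio lay above 1 for the 3 higher clusters and below 1 for 5. These were the 3 lower ones and also cluster 26 (ratio 0.802, 0.661 to 0.972) and cluster 2 (ratio 0.545, 0.327 to 0.909). So overlapping exact intervals do not show equal shares. Among cells with a mitochondrial share at or below the median of all cells, which left 1130 shZdhhc17 and 1216 shSCR macrophages, cluster 22 (ratio 1.88) was the 1 of the 6 with separate intervals. The ratios of the other 5 kept their direction there, at 1.38 for cluster 38 and 1.54 for cluster 103 (1.60 and 1.76 with all cells), and at 0.643 for cluster 8, 0.767 for cluster 51 and 0.827 for cluster 90 (0.577, 0.714 and 0.647 with all cells). With 1 library per group, mouse to mouse spread is not known, and which of the 7 genes mark these clusters was not analysed here.

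**Figure D3:**
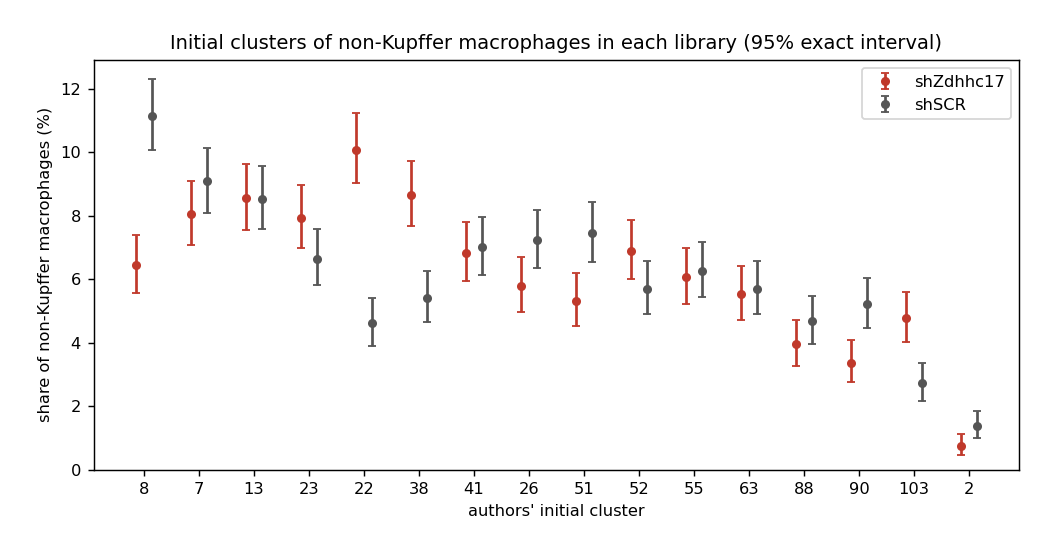
Share of non-Kupffer macrophages (y axis, percent) in each of the authors' 16 initial clusters with at least 50 cells (x axis), for the shZdhhc17 library (red, left of each pair) and the shSCR library (grey). Points are shares and bars exact 95% binomial intervals, which separate for clusters 22, 38 and 103 (higher in shZdhhc17) and for clusters 8, 51 and 90 (lower).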

How the data were processed

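Single-cell RNA was captured on BD Rhapsody cartridges from 1 pooled library per group. The authors used the Rhapsody pipeline, removed ambient RNA, clustered and reclustered the cells and annotated them by markers, on GRCm38, per the file headers. The submitters' processing notes name Seurat 4.1.0. The deposited cell tables hold counts per cell (UMIs and detected genes), the percent of mitochondrial UMIs, and UMAP coordinates, which were not used here. The marker table holds, per the file headers, log2 fold changes (Seurat's Wilcoxon method, pseudocount 1), the fraction of cells with the gene, printed here as percent, and 2 scores of the authors, for specificity and for markers.

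Members were matched by symbol and annotated with GENCODE M21. That the authors' reference used this release is not given in the sources used here. Shares have exact (Clopper-Pearson) 95% intervals and ratios (shZdhhc17 over shSCR) log-normal ones, computed with scipy 1.17.1. The ratio intervals and the calling of higher shares were checked on simulated binomial counts at a single base share, without spread between mice. The exact intervals by themselves, the calling of lower shares and smaller base shares were not checked. Shares count as higher or lower only if their exact intervals do not overlap. The rule for named genes took all 7 members, and gave a list of 30 other genes of such macrophages as counts, with values for those in the marker table. Planned levels per cell type, and genes of like pattern, were not computed, since counts per gene and cell were not used here. The members and lists were chosen with earlier results of these data known. Doublets and unknown cells stayed in the denominators of shares of all cells.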

Additional observations from a re-analysis of the deposited data

How the results depend on the processing

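The share of members flagged as variable was 71.4% over all cells, against 3.51% of all genes. With the genes and flags of the neutrophil table, where 4 were listed, it was 25%, against 4.64% of all genes listed there. The flags were set on different cells and gene lists, so these are not the same result under another setting. The share ratio of non-Kupffer macrophages among all cells (0.997, shZdhhc17 over shSCR) was 1.11 at a mitochondrial percent at or below the median of 5.57% and 1.15 among cells other than cancer cells. The number of macrophage clusters with separate intervals was 6, and 1 at low mitochondrial percent, where 1130 shZdhhc17 and 1216 shSCR macrophages were left. The ratios of clusters 8, 38, 51, 90 and 103 were then 0.643, 1.38, 0.767, 0.827 and 1.54, all in the same direction as with all cells. That of cluster 90 was just outside its ratio interval with all cells. The ratio of cluster 7 was outside its interval too, at 1.06 against 0.886 with all cells. The number of clusters with separate intervals stayed 6, with the same clusters, for cells with at least 1925 UMIs (the lower quartile). With all cells as the denominator it was 6 as well. That choice multiplies every cluster ratio by the same 0.997, so it could hardly change the number. Cells other than cancer cells were not tried as the denominator for the clusters. The number was also 6 without cells whose label occurs in both libraries, an alternative chosen after seeing the data. The alternatives for levels of the members (scaling, a minimum of UMIs, thinning, doublets) were not run, since no counts per gene and cell were used here. No paired analysis was possible because each group is 1 library. The marker values are the authors' and could not be recomputed, so their dependence on depth is unknown.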
